A study of Arabidopsis thaliana with 8 samples.

Results

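RNA of Arabidopsis root explants of the hag1 mutant was compared with that of the wild type Columbia-0 (Col) late in shoot regeneration, after 4 days on callus-inducing medium (CIM) and then 2 weeks on shoot-inducing medium (SIM). The comparison takes all genes of the 2 libraries that carry these labels, of 8 libraries in the series, and 23237 of the 25686 loci with a unique read in any library had one in either of them. The other 6 libraries are Col and hag1 roots, explants after 4 days on CIM, and explants after 4 days on CIM with 2 further days on SIM. Plants had been germinated on Murashige and Skoog medium with sucrose and grown in long days, and both genotypes had the same culture. The labels name hag1 as a mutant without its allele, and they give no ages, plant numbers or separate cultures.

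In this culture system the auxin of CIM turns cells around the root vasculature into a callus that resembles a root primordium, and the cytokinin of SIM then lets shoot meristems, leaves and green tissue form on it. HAG1, also called AtGCN5, is a histone acetyltransferase that acetylates the tail of histone H3 at active genes, as the catalytic subunit of coactivator complexes. The labels frame the series around the course of de novo shoot regeneration, so the question here is which genes differed between the genotypes at its latest time point.

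The Col library held 6.96 M and the hag1 library 7.40 M unique reads (M stands for mega), spread over 22136 and 21514 loci, and the 8 libraries ranged from 6.96 M to 7.54 M. Every stage had 1 library per genotype. A ratio at 2 weeks therefore had no replicate check, and its 95% interval, an exact binomial (Clopper-Pearson) one, covers counting error only. Reads were scaled with TMM, and a gene was counted as higher or lower in hag1 when it had at least 50 reads in either library and differed at least 2-fold. These libraries hold whole explants, in which fewer cells of a type and less RNA per cell cannot be told apart.

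HAG1 itself had 156 reads in Col and 13 in hag1 after 2 weeks, a log2 ratio of -3.58 (95% interval -4.53 to -2.77). In TAIR10 the locus, AT3G54610, spans chromosome 3 from 20213560 to 20217653 and is read on the forward strand. HAC2 (AT1G67220), another histone acetyltransferase gene, had 0 reads in Col and 43 in hag1, at least 14.3-fold higher with a floor of 3 reads per library. The other acetyltransferase genes with at least 50 reads lay between -0.71 for HAC4, with 131 reads in Col and 80 in hag1, and 0.35 for HAG2, with 496 and 633. Of 16 genes for Polycomb proteins, DNA methylation and histone deacetylation, 0 passed 2-fold in either direction. Over all loci 1.27% were at least 2-fold higher and 5.43% lower, so 0 of 16 is near the general share. MET1, the maintenance DNA methyltransferase, had 2042 reads in Col and 1943 in hag1, and CLF, a Polycomb histone methyltransferase, 435 and 393.

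Lower levels in hag1 outnumbered higher ones. Of 12186 genes that reached 50 reads in a library, 327 (2.68%) were at least 2-fold higher and 1396 (11.5%) at least 2-fold lower in hag1. Over all 25686 loci, whatever their reads, these are 1.27% and 5.43%, against which the counts of list members below can be set. At least 4-fold differences numbered 60 higher and 595 lower. The median log2 ratio of the 12186 genes was 0.05, with 5% of genes under -1.91 and 5% over 0.74. By the same rule, 4.13% were higher and 8.18% lower in roots, 4.87% and 7.75% after 4 days of CIM, and 5.45% and 9.66% at 2 days of SIM. Of the 1396 genes lower at 2 weeks, 733 were not lower by this rule at any other stage and 48 were lower at all 4. At some other stage 155 of the 1396 were higher. Of the 327 higher ones, 158 were not higher at any other stage, 28 were higher at all 4, and 32 were lower at some other stage. A gene under 50 reads at a stage could not be counted there, and such genes were not set apart. These counts therefore do not show that a difference was particular to 2 weeks. The scatter of both libraries shows a wide field of genes under the diagonal and a narrow one above it.

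**Figure D1:**
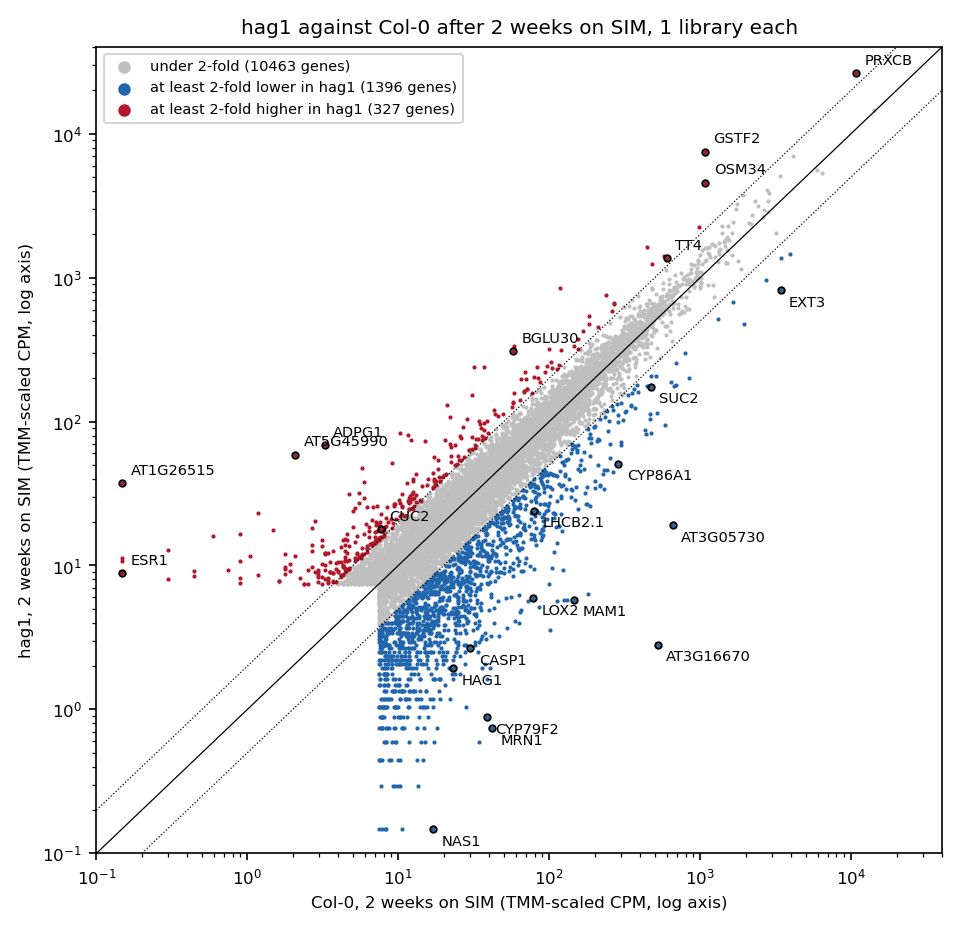
TMM-scaled CPM (reads divided by the scaled size of the library) after 2 weeks on SIM on log axes, for each gene that reached 50 reads, Col on the x axis and hag1 on the y axis. The solid line marks equal levels and the dotted lines 2-fold differences, and a count of 0 is drawn at 1 read. The 1396 lower genes reach far under the lower dotted line, while most of the 327 higher genes lie near the upper one.

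Among the lower genes with the largest ratios were a few with many Col reads at this stage and almost none before it. AT3G16670 (chromosome 3, 5681419 to 5682331), described as a pollen Ole e 1 allergen and extensin family protein, had 3533 reads in Col and 19 in hag1, a 186-fold difference. In the other 6 libraries it had between 1 and 3 reads. AT3G05730 (chromosome 3, 1695976 to 1696708), which encodes a defensin-like protein, had 4463 and 129 reads after 2 weeks and 3 or 4 in each of the other 6 libraries. Both genes were thus read almost only after 2 weeks, and mostly in Col. AT4G11320, a papain family cysteine protease, had 1223 reads in Col and 43 in hag1 (-4.83, -5.30 to -4.39), after 39182 and 21245 in roots. BGLU44, a beta-glucosidase gene, had 683 and 24 reads (-4.83, -5.48 to -4.24).

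Of the 22 genes of the glucosinolate list, 14 had at least 50 reads, 7 were at least 2-fold lower and 0 higher, and the median log2 ratio was -1.02 over the 20 with a read in either library. Members known from the branch that uses methionine ranged widely, from -5.44 for CYP79F2 to -1.04 for SOT18. Glucosinolates are sulfur-rich defence compounds of the cabbage family. The aliphatic ones are built from methionine, whose side chain is first lengthened and then carried through a core pathway shared in outline with the indole ones made from tryptophan. The promoters of MAM1, BCAT4 and CYP83A1 of this pathway, and of the Casparian strip gene CASP1 described further on, are shown because these genes had 203 to 987 reads in Col and 18 to 39 in hag1. Each is the 250 bases upstream of the listed gene start, 5′ to 3′ on the gene's strand, from the RefSeq TAIR10.1 chromosomes. MAM1 is at chr5:7702842-7703091 (forward strand), BCAT4 at chr3:6849498-6849747 (reverse), CYP83A1 at chr4:7992312-7992561 (reverse) and CASP1 at chr2:15160751-15161000 (reverse).
MAM1: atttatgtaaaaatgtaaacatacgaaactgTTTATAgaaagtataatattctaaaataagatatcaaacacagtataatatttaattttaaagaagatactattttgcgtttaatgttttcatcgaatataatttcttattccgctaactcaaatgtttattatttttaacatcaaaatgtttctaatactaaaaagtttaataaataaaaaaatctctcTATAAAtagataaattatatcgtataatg
BCAT4: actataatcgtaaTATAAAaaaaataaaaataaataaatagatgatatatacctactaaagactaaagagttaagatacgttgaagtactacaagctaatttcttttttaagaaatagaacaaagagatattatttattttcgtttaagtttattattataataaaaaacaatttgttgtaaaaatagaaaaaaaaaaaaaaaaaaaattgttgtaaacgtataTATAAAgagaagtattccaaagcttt
CYP83A1: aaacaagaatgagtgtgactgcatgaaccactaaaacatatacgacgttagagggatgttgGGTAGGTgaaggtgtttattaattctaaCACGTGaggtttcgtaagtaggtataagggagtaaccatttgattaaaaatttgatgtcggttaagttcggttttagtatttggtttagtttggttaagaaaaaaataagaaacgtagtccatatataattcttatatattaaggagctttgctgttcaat
CASP1: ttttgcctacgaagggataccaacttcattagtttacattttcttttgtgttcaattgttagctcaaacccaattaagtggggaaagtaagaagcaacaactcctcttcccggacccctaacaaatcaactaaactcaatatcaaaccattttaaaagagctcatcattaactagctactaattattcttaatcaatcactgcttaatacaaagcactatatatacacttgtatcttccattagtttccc
Capitals mark exact matches, on either strand, to the TATA motif (TATAAA), to the G-box (CACGTG), and to the AC element that MYB proteins are known to bind, in its form ACCAACC, its form ACCTACC or its form ACCTAAC. MAM1 and BCAT4 each held 2 matches to TATAAA, CYP83A1 held 1 G-box and 1 AC element on the reverse strand, and CASP1 held none of these letters. No matches overlapped in these windows. Of 25535 windows of 250 bases upstream of a listed gene, 46.5% held TATAAA, 7.87% the G-box and 6.68% one of the AC elements, and no pattern shared by the genes shown was found with these letters.

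BCAT4, which takes methionine out of protein metabolism, had 437 reads in Col and 33 in hag1 (-3.73, -4.28 to -3.21). MAM1 (AT5G23010), the synthase of the first lengthening step, had 987 and 39 reads (-4.66, -5.16 to -4.20). CYP79F2, a P450 that starts the core pathway, had 260 and 6 reads (-5.44, -6.90 to -4.30), and CYP83A1, the next P450, 851 and 39 (-4.45, -4.95 to -3.98). Each of these genes was at 0 to 6 reads in both genotypes on CIM and at 2 days of SIM, and at 57 to 190 reads in roots. In callus and early on SIM both genotypes thus had almost no reads of them, and at 2 weeks the Col library had many and the hag1 library few. UGT74C1, a glucosyltransferase of the pathway, had 347 and 40 reads (-3.12, -3.63 to -2.64), and SOT18, a sulfotransferase of its last step, 801 and 390 (-1.04, -1.22 to -0.86). MYB28, the main transcription factor of this branch, had 32 reads in Col and 0 in hag1, at least 10.7-fold lower, and CYP79F1 had 36 and 0, although both loci have 2 listed transcript models and so keep few unique reads.

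Genes of the indole branch had smaller ratios. CYP83B1, its P450 that follows the CYP79B enzymes, had 5565 reads in Col and 7042 in hag1, and CYP79B2 2238 and 1861, while CYP79B3 had 332 and 133 (-1.32, -1.62 to -1.02). PYK10, the main beta-glucosidase of root ER bodies, had 95058 and 99262 reads.

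Genes of the endodermis and of suberin were also lower in hag1. The endodermis is the innermost cortical layer of the root, sealed first by the lignin Casparian strip and then by the polyester suberin. Of 15 list members, 9 were at least 2-fold lower, 0 were higher, and the median log2 ratio of the 15 was -2.25, against 0.00019 for the 23237 genes with a read in either library. CASP1, a scaffold protein of the strip, had 203 reads in Col and 18 in hag1 (-3.49, -4.28 to -2.80), and CASP2 121 and 15 (-3.01). PER64, the peroxidase of the strip, had 193 and 28 (-2.78), and MYB36, the transcription factor that switches on CASP1 and PER64, had 785 and 247 (-1.67, -1.88 to -1.46). SGN3, the receptor kinase that keeps the strip unbroken, had 574 and 156 (-1.88). CASP1 had also been lower in hag1 roots, with 2528 reads in Col and 907 in hag1, and the median of the 13 list members that reached 50 reads in roots was -1.14.

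The suberin enzymes are described with their ratios at the other stages, without a test of the difference between stages. CYP86A1 (chromosome 5, 23765814 to 23768049), the fatty acid hydroxylase of root suberin, had 1942 reads in Col and 344 in hag1 (-2.5, -2.67 to -2.33). Its log2 ratio had been -1.18 in roots, 0.36 on CIM and 0.10 at 2 days of SIM. GPAT5, an acyltransferase of suberin monomers, had 340 and 60 reads after 2 weeks (-2.5), against ratios of -1.15 in roots, 0.91 on CIM and 0.33 at 2 days of SIM. KCS2, which lengthens fatty acids, had 620 and 127 (-2.29), and ASFT, which adds ferulate, 68 and 17. FAR5, a fatty acyl reductase, stood apart from them at -0.55, with 2500 and 1705 reads.

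Genes of root hairs, nutrient uptake and root triterpenes were taken next. Of 11 root hair genes, 6 were at least 2-fold lower and 0 higher, and all 11 had a ratio under 0, with a median of -1.27. PRP3, a proline-rich wall protein of root hairs, had 337 reads in Col and 123 in hag1 (-1.45), and RHD2, the NADPH oxidase of hair growth, 331 and 98 (-1.76). RHD6, the transcription factor upstream of hair genes, had 103 and 68 (-0.60). Of 11 genes of uptake and triterpenes, 6 were at least 2-fold lower and 0 higher, with a median of -1.83, and 8 of the 11 had a ratio under 0. The others were the iron transporter gene IRT1, its regulator FIT and the potassium transporter gene HAK5, with 2, 6 and 13 reads in each library. MRN1 (AT5G42600), the oxidosqualene cyclase that makes marneral, had 282 and 5 reads (-5.82, -7.45 to -4.58), after 3480 and 111 in roots. Its neighbour MRO, the marneral oxidase, had 675 and 50 (-3.75, -4.20 to -3.34), whereas in roots it had 1590 and 629. NRT1.1, the dual nitrate transporter and sensor, had 853 and 290 (-1.56), and the phosphate transporter gene PHT1;1 had 77 and 15 (-2.36).

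Among genes that respond to iron shortage, which were not a list of their own, values differed widely. NAS1, which makes the metal chelator nicotianamine, had 115 reads in Col and 1 in hag1, a ratio of -6.84 (-12.16 to -4.34), after 1501 and 428 in roots. The transcription factor gene bHLH38, induced by iron shortage, had 231 and 4 reads (-5.85, -7.74 to -4.48), while at 2 days on SIM it had 5 in Col and 26 in hag1. Its paralog bHLH39 had 100 and 5 (-4.32), and NAS2 174 and 23 (-2.92). NAS3 had 27 and 35 reads, NAS4 522 and 474, the zinc transporter gene ZIP5 40 and 38, and the ferric reductase gene FRO2 2 and 1. The genes of this paragraph other than NAS1, bHLH38 and FRO2 were chosen after their values were seen.

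Conducting tissue showed one of the wider shifts. Xylem carries water in dead, thickened vessels and phloem carries sugar in living sieve elements with companion cells. Of 20 list members, 10 were at least 2-fold lower and 0 higher, with a median of -1.45 over the 20. SUC2 (chromosome 1, 8030641 to 8033117), the sucrose loader of companion cells, had 3194 reads in Col and 1177 in hag1 (-1.44, -1.54 to -1.34). At the other stages hag1 had more: 1218 against 816 in roots, 868 against 402 on CIM, and 2403 against 957 at 2 days of SIM. PP2-A1, a phloem lectin, had 782 and 127 reads after 2 weeks (-2.62, -2.90 to -2.35) and log2 ratios between 1.09 and 1.49 at the other stages. SEOR1, a filament protein of sieve elements, had 199 and 43 (-2.21), SWEET11, a sucrose exporter, 417 and 150 (-1.47), and SWEET12 101 and 7 (-3.85). In the xylem, the protease gene XCP2 had 118 and 27 (-2.13), the laccase gene LAC4 93 and 24 (-1.95), and the secondary wall cellulose synthase gene IRX5 109 and 24 (-2.18). ATHB8, a marker of procambium, had 392 and 355 (-0.14).

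**Figure D2:**
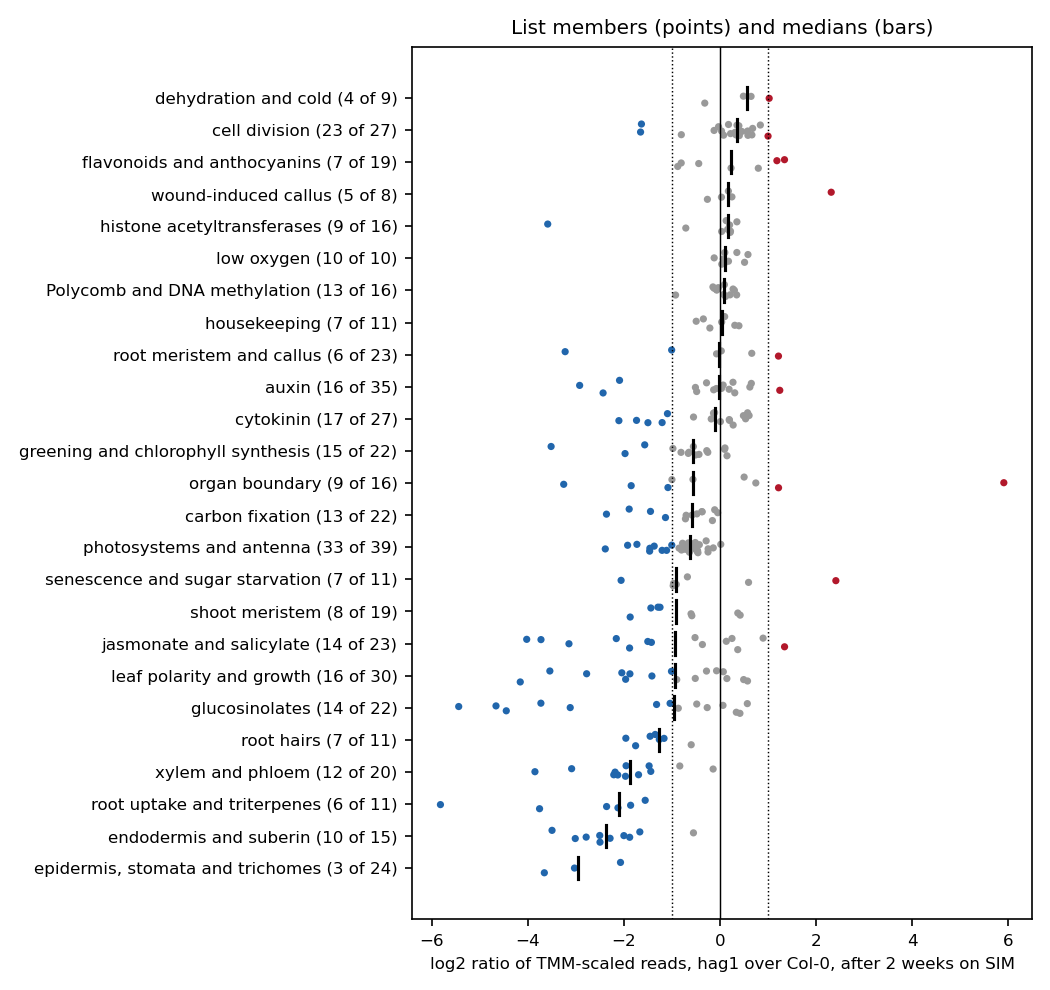
Log2 ratio of hag1 over Col after 2 weeks on SIM for those members of 25 gene lists that reached 50 reads, with the number of such members of all members in brackets. Points at least 2-fold lower are blue, at least 2-fold higher red and the others grey, black bars are medians with a prior count of 2, and dotted lines mark 2-fold. The endodermis, root uptake, vascular and root hair lists lie left of or around the lower 2-fold line, and the housekeeping, Polycomb, low oxygen and acetyltransferase lists around 0.

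Shoot meristem regulators had low counts, and 8 of 19 reached 50 reads. WUS, which defines the organizing centre of the meristem, had 16 reads in Col and 13 in hag1 (-0.30, -1.48 to 0.85), a difference not detectable at this depth. STM, which keeps meristem cells undifferentiated, had 29 and 15 (-0.95, -1.96 to -0.0041). CLV3 had no unique read in any library. Of the 19 list members, 4 were at least 2-fold lower and 0 higher. They are RPL, a BELL homeodomain gene, with 453 and 124 reads (-1.87, -2.17 to -1.58), the receptor kinase gene CLV1 with 187 and 69 (-1.44), the KNOX gene KNAT1 with 389 and 159 (-1.29), and the BELL gene ATH1 with 114 and 48 (-1.25). In Col the median member with at least 50 reads was 1.28 log2 units higher after 2 weeks than after 2 days on SIM, and in hag1 0.50.

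Organ boundary genes diverged from one another. CUC2, a NAC factor that separates organs and precedes STM, had 52 reads in Col and 121 in hag1 (1.22, 0.74 to 1.72). CUC1 had 21 and 41 (0.97, 0.17 to 1.80) and CUC3 7 and 5. ESR1, an AP2 factor that promotes shoot regeneration, had 1 read in Col and 60 in hag1 (5.91, 3.37 to 11.23). On CIM it had 67 and 89 reads and at 2 days of SIM 57 and 114, so the Col library at 2 weeks was the one with a low count. RAX2, a MYB factor of axillary meristems, had 234 and 65 (-1.85), and LSH4, a nuclear protein of boundary cells, 162 and 17 (-3.25, -4.07 to -2.53). LSH3 from the same family had 305 and 432 (0.50). Of 16 members, 2 were higher and 3 lower.

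Root stem cell and callus regulators were few in reads at this stage. WOX5, of the quiescent centre, had 6 reads in Col and 1 in hag1 (-2.58, -8.11 to 0.46), PLT1 24 and 4, and PLT2 22 and 3. JKD, a partner of SHR and SCR, had 112 and 12 (-3.22, -4.22 to -2.36), and SCR 249 and 124 (-1.01). PLT5, an AP2 factor of callus that acts before the shoot regulators, had 151 and 351 (1.22). PLT3 with 83 and 79 reads and PLT7 with 319 and 325 were near equal. Of 23 members, 1 was higher and 2 were lower, and the median was -0.02 among those with at least 50 reads but -0.68 among the 22 with any read.

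Of 30 genes of leaf polarity and growth, 8 were at least 2-fold lower and 0 higher, and of the 16 with at least 50 reads 12 had a ratio under 0 and 4 over it. KAN2, which specifies the lower leaf side, had 128 reads in Col and 11 in hag1 (-3.54, -4.58 to -2.65), while KAN1 had 113 and 93 (-0.28). NGA1, a factor of leaf margins, had 107 and 6 (-4.16) and NGA3 89 and 13 (-2.77). TCP10, which ends cell division in leaf blades, had 239 and 58 (-2.04), and GIF1, a coactivator of leaf growth, 110 and 30 (-1.87). Of the upper side factors, PHB had 2160 and 2266 reads, PHV 2330 and 3278 (0.49, 0.42 to 0.57), and REV 888 and 1321 (0.57, 0.45 to 0.70), all over 0 and under 2-fold. Of 24 genes of epidermis, stomata and trichomes, 3 reached 50 reads and all 3 were lower. Each of the 3 reached 50 reads in Col only, so their direction is partly set by that choice. The median log2 ratio of the 18 members with a read in either library was -1.18. PDF1, an outer layer protein, had 310 and 38 reads (-3.03, -3.55 to -2.54), after 3122 and 115 at 2 days on SIM. FDH, which makes cuticle lipids, had 189 and 45 (-2.07), and the receptor kinase gene ER 63 and 5 (-3.65).

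Photosynthesis genes were present in both genotypes and lower in hag1. Of 39 genes of the photosystems and antenna, 33 had at least 50 reads, 9 of the 39 were at least 2-fold lower, 0 were higher, and 32 of the 33 had a ratio under 0. The exception was PSBX, with 878 reads in Col and 888 in hag1. The shift was modest, with a median of -0.63. LHCB2.1, of the trimeric antenna of photosystem II, had 537 and 162 reads (-1.73, -1.99 to -1.47), PSAE1 of photosystem I 411 and 149 (-1.46), and the plastocyanin gene PETE1 136 and 26 (-2.39). Its paralog PETE2 had 1238 and 797 (-0.63), and reads of near-identical copies may be split between such pairs. LHCB4.1 with 1164 and 815 reads (-0.51) and PSBO1 with 2666 and 1979 (-0.43) show the more common size. In Col the median member was 4.48 log2 units higher after 2 weeks than after 2 days on SIM, and in hag1 3.53.

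In carbon fixation, 4 of 22 genes were at least 2-fold lower and 0 higher. PRK, which regenerates the CO2 acceptor, had 654 reads in Col and 240 in hag1 (-1.45, -1.67 to -1.23), and the Rubisco small subunit gene RBCS1A 450 and 205 (-1.13). GAPA1 had 1594 and 1233 (-0.37) and PGK1 2858 and 2648 (-0.11). Among 22 genes of greening, 3 were lower and 0 higher. CGA1, a cytokinin-induced GATA factor of chloroplast growth, had 240 and 21 (-3.51, -4.23 to -2.87), and at most 5 reads in each of the other 6 libraries. GLK2, a factor of photosynthesis genes, had 59 and 15 (-1.98), and PORB, which makes chlorophyllide in light, 77 and 26 (-1.57). HY5, the light-response factor, had 291 and 322.

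**Figure D3:**
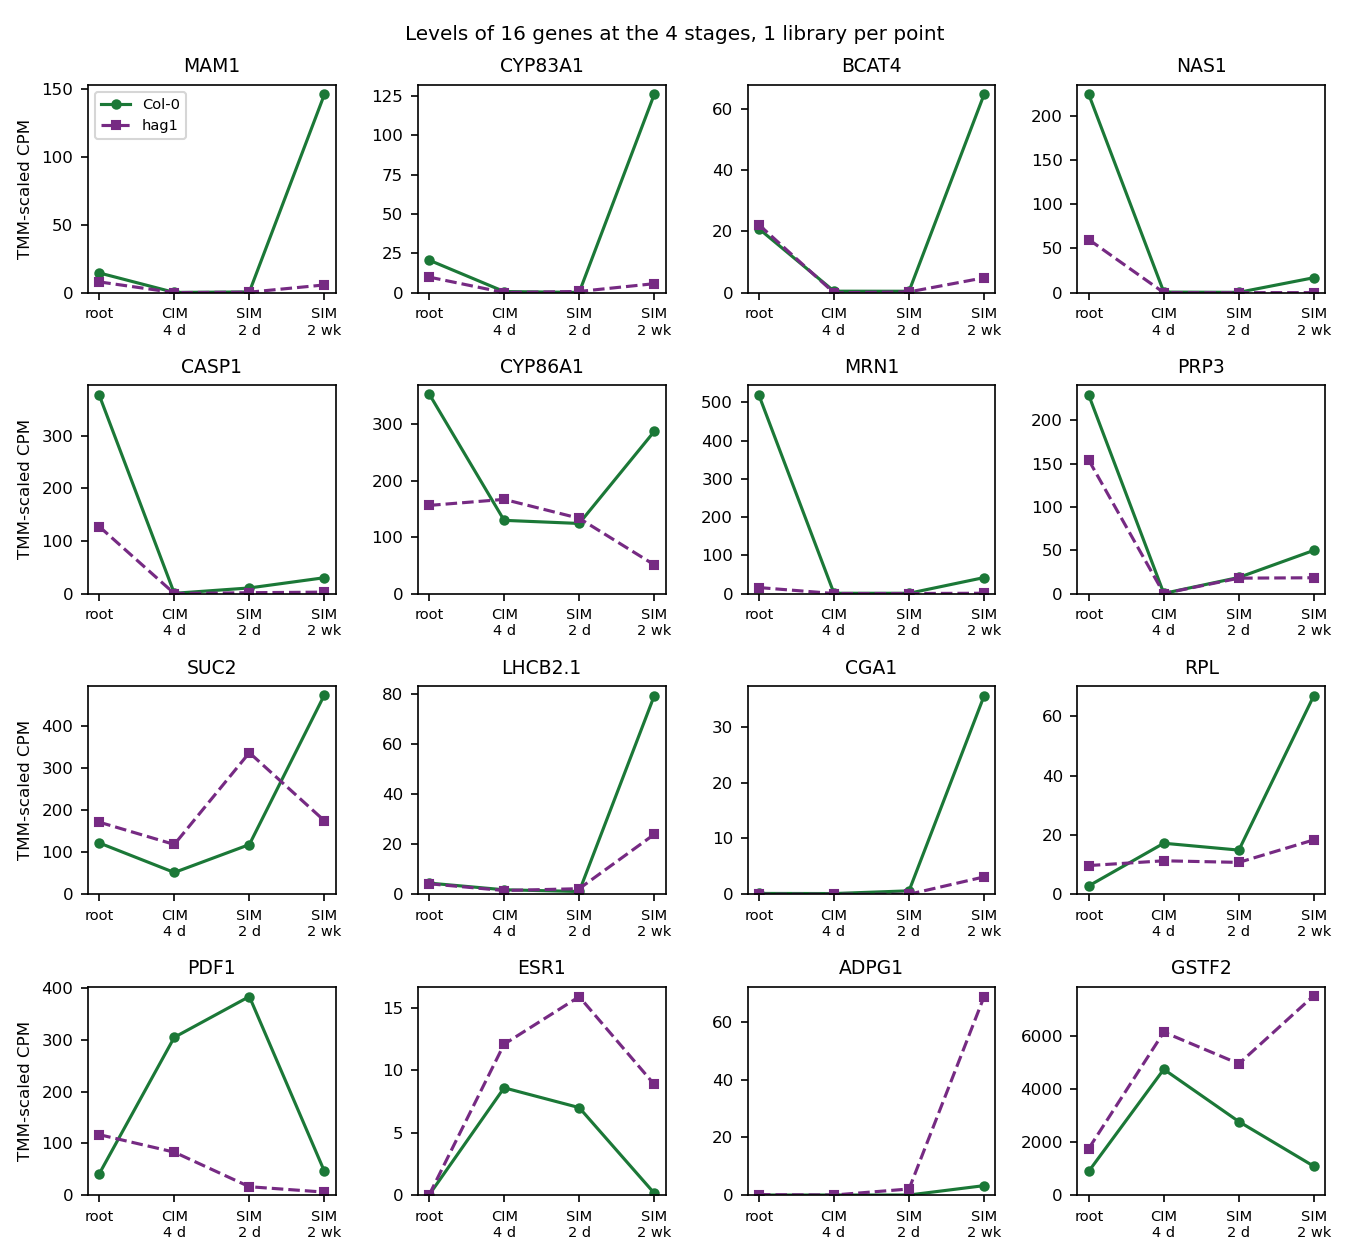
TMM-scaled CPM of 16 genes in roots, after 4 days on CIM, and after 2 days and 2 weeks on SIM, each point 1 library, with Col as circles and hag1 as squares. Lines join stages of a genotype for reading only. MAM1, CYP83A1 and BCAT4 were near 0 in callus in both genotypes and high after 2 weeks in Col, SUC2 changed order between 2 days and 2 weeks on SIM, and ADPG1 and GSTF2 were high after 2 weeks in hag1.

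Jasmonate and salicylate genes were split. LOX2, the chloroplast lipoxygenase of jasmonate synthesis, had 529 reads in Col and 40 in hag1 (-3.72, -4.23 to -3.26) and at most 10 in each of the other 6 libraries. AOS, the next enzyme, had 280 and 76 (-1.88), and AOC2, which follows it, 53 and 6 (-3.14). The pathogenesis genes PR1 with 65 and 4 reads (-4.02), PR2 with 549 and 123 (-2.16) and PR5 with 68 and 24 (-1.50) were lower. PAD3, the last enzyme of camalexin synthesis, was higher, with 539 and 1368 (1.34), and WRKY70 had 703 and 1309 (0.90). Of 23 members, 7 were lower and 1 higher.

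Hormone response genes differed at single members. In the cytokinin list 5 of 27 were at least 2-fold lower and 0 higher. The receptor gene AHK2 had 311 reads in Col and 110 in hag1 (-1.50), and ARR2, a type-B response activator, 245 and 57 (-2.10), while AHK3 had 1142 and 1057 and ARR12 655 and 751. The type-A repressors ARR4 with 1660 and 2402 (0.53), ARR5 with 1115 and 1348 (0.27) and ARR7 with 354 and 527 (0.57) were under 2-fold. ARR3, also of type A, was at least 2-fold lower (-1.74), so the type-A genes did not share a direction. In the auxin list 3 of 35 were lower and 1 higher. TAA1, which starts auxin synthesis from tryptophan, had 54 and 10 (-2.43), the influx carrier gene LAX2 53 and 7 (-2.92) and the efflux carrier gene PIN2 115 and 27 (-2.09). GH3.6, which conjugates auxin to amino acids, had 480 and 1137 (1.24, 1.09 to 1.40), and ARF5 2772 and 2902.

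Cell division genes leaned slightly the other way. Of 27 members, 1 was at least 2-fold higher and 2 lower, and 18 of the 23 with at least 50 reads had a ratio over 0, with a median of 0.35. MCM4, a helicase subunit of replication, had 576 reads in Col and 856 in hag1 (0.57), PCNA1, the replication clamp, 318 and 474 (0.58), and the mitotic cyclin gene CYCB1;1 100 and 179 (0.84). The D-type cyclins CYCD3;2 with 261 and 83 (-1.65) and CYCD1;1 with 59 and 19 (-1.63) were lower, and CYCD3;1, with 1123 and 1100, was near equal. Low oxygen genes, with ADH1 at 14298 and 16159 reads and PDC1 at 6242 and 6665, had 0 of 10 past 2-fold. Of 11 housekeeping genes 0 passed 2-fold, and SAND had 857 and 878 reads.

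Some of the genes higher in hag1 had few Col reads at every stage. AT1G26515, an F-box gene (chromosome 1, 9161810 to 9162910), had 1 read in Col and 252 in hag1 (7.98, 5.49 to 13.29), and 0 to 2 in Col against 40 to 180 in hag1 at the other stages. AT5G45990, annotated as a crooked neck protein, had 14 and 397 reads (4.83, 4.06 to 5.71), and the ubiquitin ligase gene ARI13 39 and 319 (3.03). The genes with the largest ratios also held ADPG1 and PGAZAT. ADPG1, a polygalacturonase that cuts pectin where organs detach, had 22 reads in Col and 465 in hag1 (4.40, 3.79 to 5.09), and at most 15 in each of the other 6 libraries. PGAZAT, also known as ADPG2, had 4 and 109 (4.77, 3.37 to 6.67), and 42 and 517 on CIM. Of 73 loci described as pectin lyase-like, 1 was at least 2-fold higher and 10 were lower. This grouping by words leaves out at least 1 of these 2 polygalacturonase genes, so it is not a count of the family.

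The largest differences in CPM were found in a few abundant RNAs. The peroxidase gene PRXCB had 72608 reads in Col, 1.04% of its library, and 177267 in hag1, 2.39% (1.29, 1.28 to 1.30). GSTF2, a glutathione S-transferase, had 7296 and 50678 reads (2.80, 2.76 to 2.83), and its ratio had been between 0.37 and 0.97 at the other stages. OSM34, an osmotin-like defence protein, had 7304 and 30760 (2.07), and the chalcone synthase gene TT4, which opens flavonoid synthesis, 4069 and 9248 (1.19, 1.13 to 1.24). Of 19 flavonoid genes, 2 were higher and 0 lower by the rule, with a median of 0.23 that was -0.75 over the 18 with any read. The anthocyanin enzyme gene DFR had 21 reads in Col and 0 in hag1. BGLU30, known for its rise in starved leaves, had 391 and 2080 (2.41, 2.26 to 2.57). Of the 11 genes of its list, senescence and sugar starvation, 1 was higher and 1 lower, with a median of -0.58 over the 11. Among the 7 with at least 50 reads, 5 had a ratio under 0 and 2 over it. ERF114, a wound-induced factor of callus, had 40 and 199 reads (2.32, 1.82 to 2.84). In its list of 8 wound-induced callus genes 1 was higher and 0 lower, with a median of 0.10 over the 8. Of the largest CPM differences in the other direction, EXT3, an extensin, had 23026 and 5524 reads (-2.06, -2.10 to -2.02), AT2G43150, an extensin-like protein, 26711 and 9889 (-1.43), and PRXR1 23018 and 9217 (-1.32).

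Markers of tissues gave the following totals. Leaf and shoot markers (LHCB3, RBCS1A, FIL, STM and KAN1, with YAB3 and GL1 at no read) summed to 1509 reads in Col and 819 in hag1, against 361 and 284 after 2 days on SIM. The 7 root markers, among them CASP1, PRP3 and GPAT5, summed to 924 and 222 reads, against 6274 and 3485 in roots, and 6 of the 7 were below Col. Phloem markers, mostly through SUC2, summed to 3400 and 1222, xylem markers to 79 and 28, and stomatal ones to 12 and 3 with MUTE and EPF1 at 0. At the other stages the phloem sum was higher in hag1. It was 1190 in Col and 2230 in hag1 in roots, 493 and 899 on CIM, and 1055 and 2426 at 2 days of SIM. The 4 embryo or seed markers had 0 reads in both libraries, and the flower markers 2 and 1 reads with AP1 and SEP3 at no read. Several markers, among them CASP1, PRP3, GPAT5, RBCS1A, STM, KAN1 and SUC2, are themselves members of the lists above, so these totals are not separate from the lists' values. Their part in each result was not tested.

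The difference between genotypes at 2 weeks was tested against that at the other 3 stages, with the libraries of the other stages standing in for replicates. The edgeR quasi-likelihood test called 0 of 16825 genes (0%) at an adjusted p under 0.05. An unadjusted p under 0.05 was reached by 850, about the share that this threshold gives without any difference. The DESeq2 Wald test of the same term called 51 of 14730 genes (0.346%), of which 48 fell and 3 rose. PP2-A1 had the lowest edgeR p, with a difference of -3.90 log2 units (SE 0.33, edgeR adjusted p = 0.589, DESeq2 adjusted p = 2.41e-08). SBP2, a selenium-binding protein, had 727 reads in Col and 84 in hag1 after 2 weeks, and its difference was -4.27 (SE 0.37, edgeR adjusted p = 0.589, DESeq2 adjusted p = 7.83e-06). AT5G37690, an SGNH hydrolase, had 1455 and 245 reads and a difference of -2.69 (SE 0.30), with adjusted p = 0.622 in edgeR and 5.65e-05 in DESeq2. Other genes named above that DESeq2 called were AT3G16670 (adjusted p = 1.43e-06), AT3G05730 (9.41e-06), MAM1 (0.0120), AT4G11320 (0.0186), CYP79F2 (0.0113), bHLH38 (0.00415), MRO (0.0352), PHT1;1 (0.0384) and SUC2 (0.0116), all falling, and GSTF2 (0.00981), which rose. The 2 residual degrees of freedom come from how the ratio of hag1 to Col varied among the other 3 stages. Stage-specific effects there are thus part of the error of this test, and the 2 weeks libraries add nothing to it.

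**Figure D4:**
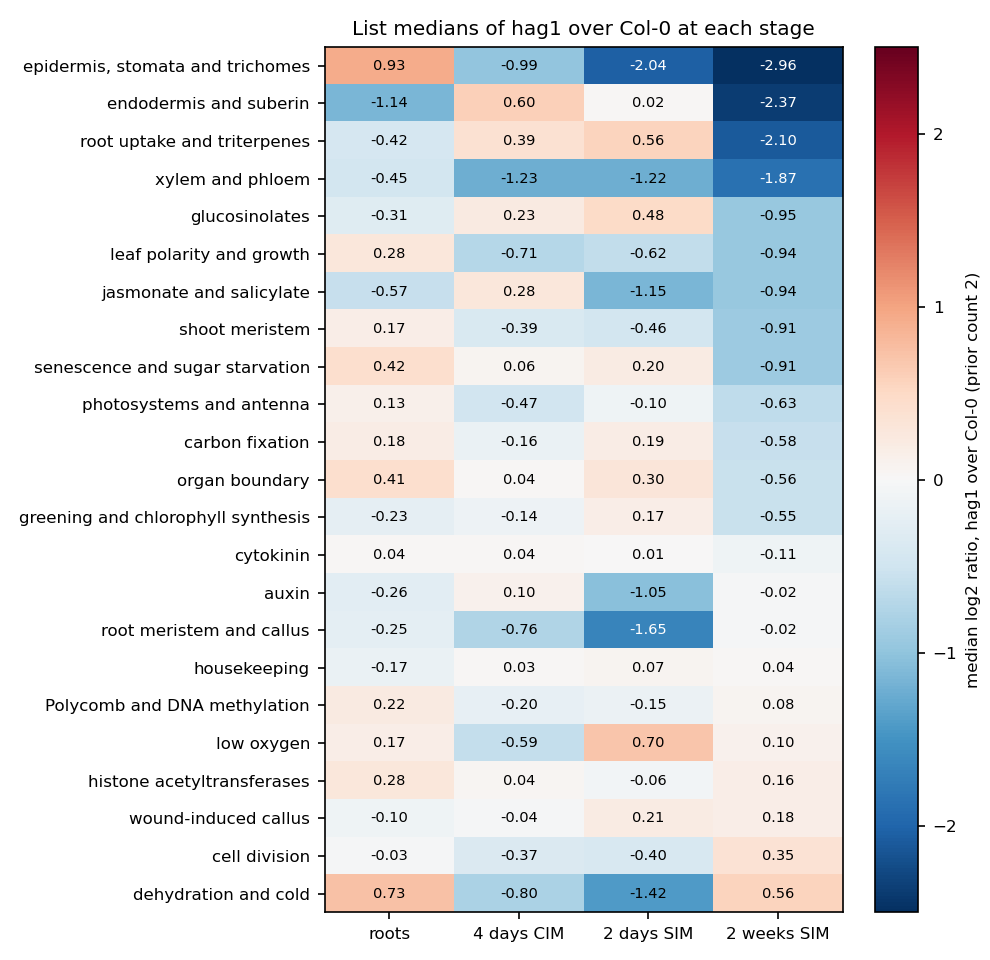
Median log2 ratio of hag1 over Col (prior count 2) of gene lists at the 4 stages, over members that reached 50 reads in a library of that stage, so that the members counted vary by stage. Blue is lower and red higher in hag1. The endodermis list stood at -1.14 in roots, 0.60 on CIM, 0.02 at 2 days of SIM and -2.37 after 2 weeks. At the same stages the glucosinolate list stood at -0.31, 0.23, 0.48 and -0.95.

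Set side by side, the lists differed in how their levels at 2 weeks compared with those at 2 days on SIM in each genotype, as a description only. Both comparisons use the 2 libraries of this contrast, and members were taken for at least 50 reads in either, mostly through Col, so a high value in Col is partly set by that choice. For all 12186 genes the median log2 difference was 0.05 in Col and 0.04 in hag1. For the root uptake and triterpene list it was 3.1 in Col and -0.58 in hag1, for the endodermis and suberin list 1.39 and -0.17, and for root hairs 1.41 and 0.04. For carbon fixation it was 3.29 and 2.55, and for greening 2.39 and 1.71. The root meristem and callus list stood at -1.66 in Col and -0.63 in hag1. The difference between the genotypes was not tested for any list.

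**Figure D5:**
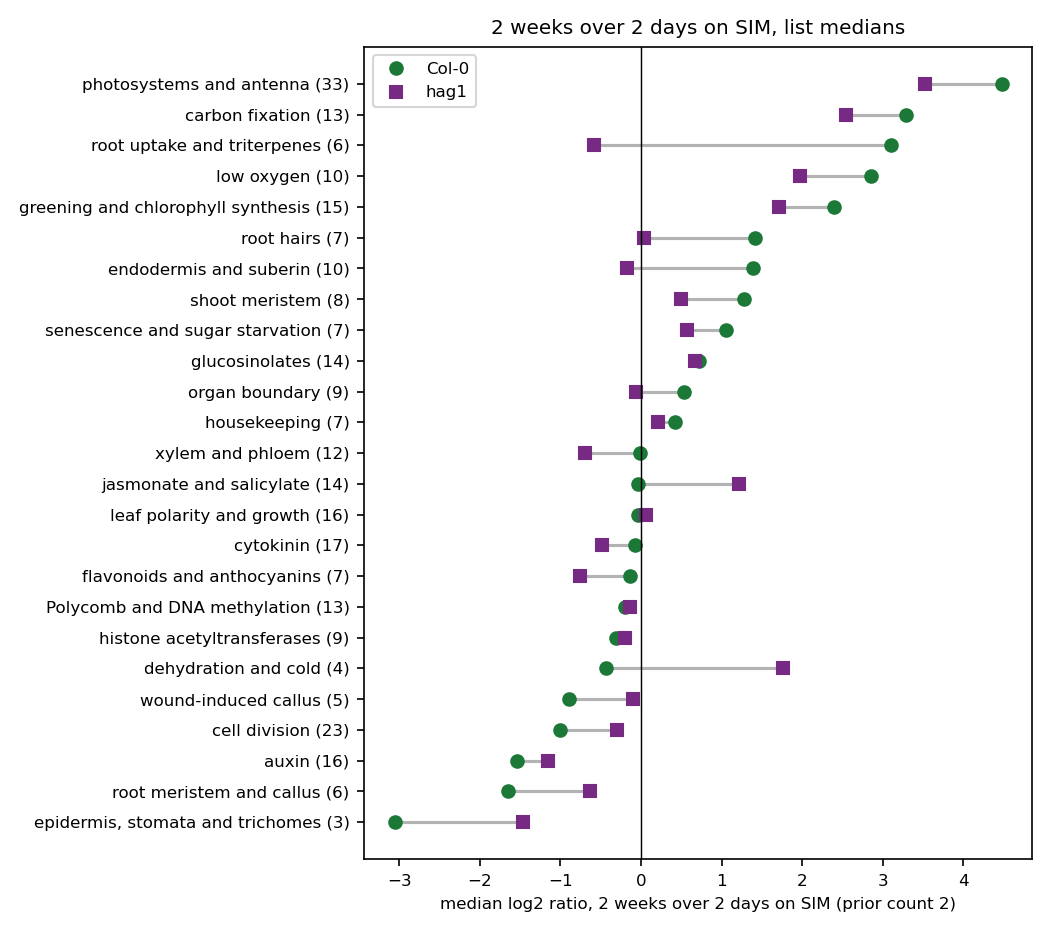
Median log2 ratio of 2 weeks over 2 days on SIM (prior count 2) per gene list in Col (circles) and hag1 (squares), over the members with at least 50 reads in either 2 weeks library, whose number is in brackets. The photosystem list lies at 4.48 and 3.53, while the root uptake and triterpene list lies at 3.1 in Col and -0.58 in hag1.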

How the data were processed

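RNA-seq of 8 libraries, 1 per genotype and stage, was compared after 2 weeks on SIM; per the labels, BGI made the libraries from total RNA with Illumina protocols. Per the file headers, the deposited files give the count of unique reads, the RPKM and the coverage as percent of each transcript model covered. The submitters' processing notes name TAIR10, while for the aligner, the counter and the use of strand no name is given in the sources used here. Deposited counts were summed per locus. The 4184 loci with several listed models held 3.16% (Col) and 3.26% (hag1) of reads, with a median coverage of 6.34% and 6.37% against 83.7% and 82.1% for other models, so their counts are low and uncertain, as are those of near-identical copies and antisense neighbours.

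Counts were TMM-scaled over the 8 libraries with edgeR 4.0.16 (R 4.3.3), the 2 libraries compared having 6.96 M and 7.40 M unique reads. Ratios carry an exact 95% interval (Clopper-Pearson, scipy) for counting error only, since reads without molecular identifiers are not independent molecules. A count of 0 was set to 3 reads only where a fold is given as "at least", and medians used a prior count of 2. The 2-fold calls used the counts as they were, so a gene with 0 reads in 1 library could be called. This held for 3 of the lower genes and 0 of the higher ones. The test against the other stages was edgeR's quasi-likelihood test with terms for stage, genotype and hag1 at 2 weeks (Benjamini-Hochberg, filterByExpr), with DESeq2 1.42.0 as the alternative. This model fits the 2 weeks libraries exactly, so its error is how the ratio of hag1 to Col varied among roots, CIM and 2 days of SIM. As no label speaks of separate cultures, technical spread and stage-specific effects cannot be told apart in that error. On simulated counts of 16825 genes the edgeR step called 13 of 100 genes changed 4-fold, 87 of 100 changed 16-fold and 7 unchanged genes. The simulation gave each unchanged gene the same mean level at all stages and all genes the same spread. Its shares are therefore not the power of the test in these data.

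The 27 gene lists (513 members, 18 without a unique read in any library), the comparison and the rule for naming genes were chosen with earlier results of these data known. Named were HAG1, the main stem cell and boundary regulators, 10 genes per direction by ratio with at least 100 reads, 8 by CPM difference, up to 6 per list and 5 per direction by p. Other list members appear where a group is described, and these, with genes said to be so, were chosen after their values were seen. Alternatives were other scalings, other read minimums, the whole interval past 2-fold, single-model loci and the deposited RPKM as log2(RPKM + 1). Promoters came from RefSeq TAIR10.1, where 25454 of 25463 nuclear loci matched the deposited coordinates by overlap.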

Additional observations from a re-analysis of the deposited data

Results flagged for a closer look

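These genes differed at least 2-fold after 2 weeks on SIM and had the opposite sign at each of the other 3 stages, where each also had at least 50 reads. SUC2 had a log2 ratio of -1.44, AT5G26260, a TRAF-like protein, -1.49, AT5G20700, of unknown function, -1.33 and PP2-A1 -2.62, while the ATPase gene AATP1 stood at 2.24. The test of the difference itself gave edgeR adjusted p of 0.747 for SUC2, 0.822 for AT5G26260, 0.747 for AT5G20700, 0.589 for PP2-A1 and 0.651 for AATP1, so none passed, whereas DESeq2 gave 0.0116, 0.164, 0.0913, 2.41e-08 and 0.0226. With 1 library per point, no sample of a group could be compared with others of it.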

How the results depend on the processing

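The 1723 genes past 2-fold became 2718 (544 higher, 2174 lower) with at least 20 reads and 639 (131 and 508) with at least 200. With the whole interval past 2-fold there were 1105 (155 higher, 950 lower), and by log2(RPKM + 1) 213 were higher and 1361 lower. Total reads gave 262 higher and 1537 lower, shifting all ratios by -0.09, and DESeq2 size factors 312 and 1426. Loci with 1 RefSeq transcript gave 222 and 960, and a mean of 50 reads over the 8 libraries 323 and 1538, both chosen after seeing the data. DESeq2 called 51 genes for the late term against 0 in edgeR, and the cause was not tested. edgeR called 0 without both libraries of roots, CIM or 2 days SIM in turn. There 876 to 1260 genes, of 16701 to 17104 tested, had an unadjusted p under 0.05. It also called 0 with DESeq2 size factors (848 of 16825 at that unadjusted p) and without a low-count filter (1126 of 25686). Of 27 list medians, 15 lay at or under -0.5, and 15 to 17 did so under the 5 alternatives. Among the 15, the flowering median rests on 1 gene and the epidermis median on 3. The lists changed over all members with a read. There the organ boundary list was over -0.5 (-0.36), and the root meristem (-0.68), flavonoid (-0.75) and embryo (-0.58) lists were under it. Medians of the flavonoid, embryo, and dehydration lists turned negative over all members with a read, and those of the Polycomb and housekeeping lists under total reads and log2(RPKM + 1) (-0.01 and -0.05). Of 214 ratios of named genes, 7 near 0 changed sign under total reads, namely PLT7 (-0.06), ARF5 (-0.02), WIND1 (-0.06), HAC5 (-0.05), MSI1 (-0.01), HB1 (-0.05) and SAND (-0.05), and 0 with DESeq2 size factors. Within 2 weeks, no paired analysis was possible because each genotype holds 1 sample, and the test against the other stages has stage as a term, which sets hag1 beside Col of the same stage.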

Other observations

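Gene families were grouped by words in the deposited descriptions, after values had been seen, and are given as counts with no test. Over all 25686 loci, 5.43% were at least 2-fold lower in hag1 after 2 weeks on SIM and 1.27% higher. Of 16 laccase genes, which polymerise lignin, 8 were lower and 0 higher. Of 69 class III peroxidase genes 21 were lower and 1 higher, of 53 HXXXD-type acyltransferase genes 13 and 0, and of 87 lipid transfer genes 17 and 1. Among 220 cytochrome P450 genes 41 were lower and 1 higher. Of 56 glutathione S-transferase genes, 8 were lower and 5 higher. In contrast, 3 of 366 ribosomal protein genes were lower and 3 higher, with a median log2 ratio of 0.24 among the 285 with at least 50 reads, and of 292 pentatricopeptide repeat genes 2 were lower and 5 higher.

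Further genes of pathways described above, also chosen after their values were seen, had these values. IMS2 (MAM3), a second lengthening synthase of aliphatic glucosinolates, had 766 reads in Col and 38 in hag1 (-4.33), and the isomerase gene IPMI1 357 and 25 (-3.84). Of suberin genes, the P450 gene CYP86B1 had 596 and 102 (-2.55), the exporter gene ABCG6 604 and 119 (-2.34), and the regulators MYB93 313 and 61 (-2.36) and MYB107 98 and 28 (-1.81). In cell separation, the receptor kinase gene HAE had 455 and 865 (0.93), whereas the polygalacturonase gene QRT2 had 434 and 114 (-1.93). AT5G47950, an acyltransferase of the thalianol cluster, had 550 and 93 (-2.56). OPT3, which carries iron in the phloem, had 8358 and 4937 (-0.76).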
